A study of Mus musculus with 2 samples.

Results

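Genes that copy the chromosomes and genes that divide them were followed in mouse neural tube at embryonic day 15.5, the tissue that becomes brain and spinal cord. The set was a written list of 57 genes out of 43346 annotated genes in the tables: 29 S-phase genes (origin licensing, helicase, fork enzymes, nucleotide supply and E cyclins), 22 G2/M genes and 6 regulators of G1. The RNA came from healthy B6NCrl embryos, for which the labels name no treatment or engineered allele, pooled from 78 embryos for replicate 1 and 62 for replicate 2, with both sexes in each pool. These 2 libraries formed 1 group, so there was no control group and no test between conditions. A difference between them is a difference between 2 pools, with no replicate behind it. In bulk RNA of this kind, fewer cells of a type and less RNA per cell cannot be told apart.

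A dividing cell loads the MCM helicase onto origins in G1 with the help of the origin recognition complex, Cdc6 and Cdt1. It opens the helicase with Cdc45 and GINS at the start of S phase, and copies DNA with polymerases held on the template by the PCNA ring. Cyclin B with Cdk1 then drives mitosis, and the anaphase-promoting complex ends it by marking cyclins and securin for destruction. In the embryonic spinal cord such divisions include those of ventricular progenitors and glial precursors, while neurons have left the cycle. The S-phase genes are classical targets of E2F factors, and many G2/M genes carry a cell cycle homology region (CHR) bound by the DREAM and MuvB complexes, usually near CCAAT boxes bound by NF-Y.

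The promoters of the listed genes carried these sequences in different proportions by phase. The RefSeq promoter table, on GRCm38.p6, held 46 of the 57 genes, with 53 start sites, each as 250 bases before and 50 after the start. An E2F-type match was any of TTTCCCGC, TTTCGCGC, TTTGCCGC or TTTGGCGC on either strand. At least 1 start site held such a match in 11 of 24 S-phase genes (45.8%) and in 1 of 18 G2/M genes (5.56%), against 2.26% of all 32851 promoters in the table. The CHR letters TTTGAA, on either strand, lay in 12 of 18 G2/M genes (66.7%) and in 4 of 24 S-phase genes (16.7%), against 17.9% of all promoters. CCAAT, on either strand, lay in 15 of 18 G2/M and 16 of 24 S-phase genes (83.3% and 66.7%), against 37.4% of all. A gene with several start sites had more than 1 chance to match, and a match is a run of letters, not a bound site. All 12 G2/M genes with a CHR match also held CCAAT. Thus 12 of 18 G2/M genes and 3 of 24 S-phase genes held both, at the same or different start sites, against 6.95% of all promoters.

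The 180 bases before the start of 8 genes are shown because they hold the pattern in each phase, with every E2F-type, CHR and CCAAT match inside them in capitals, 5′ to 3′ on the gene's own strand. In Mcm6 and Mcm5 a pair of E2F-type matches on opposite strands overlap and appear as 1 run of capitals. The S-phase genes, with E2F-type matches, are Mcm6 (chr1:128359706-128359885, minus strand), Mcm5 (chr8:75109329-75109508, plus strand) and Cdc6 (chr11:98907971-98908150, plus strand).
Mcm6: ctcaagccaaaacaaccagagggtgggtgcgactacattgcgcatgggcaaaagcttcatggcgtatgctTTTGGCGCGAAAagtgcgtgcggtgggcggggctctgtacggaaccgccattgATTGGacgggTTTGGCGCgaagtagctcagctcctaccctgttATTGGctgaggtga
Mcm5: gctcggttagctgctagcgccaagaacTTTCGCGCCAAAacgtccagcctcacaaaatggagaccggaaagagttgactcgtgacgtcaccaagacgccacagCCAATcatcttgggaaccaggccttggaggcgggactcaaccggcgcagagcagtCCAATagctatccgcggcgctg
Cdc6: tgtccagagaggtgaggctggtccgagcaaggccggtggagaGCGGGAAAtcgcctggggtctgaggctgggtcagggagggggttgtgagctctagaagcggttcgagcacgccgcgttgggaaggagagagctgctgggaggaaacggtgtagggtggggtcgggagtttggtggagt
The G2/M genes, with CHR and CCAAT matches, are Cdk1 (chr10:69352913-69353092, minus strand), Ube2c (chr2:164769749-164769928, plus strand), Top2a (chr11:99024190-99024369, minus strand), Mki67 (chr7:135716380-135716559, minus strand) and Cdc20 (chr4:118437344-118437523, minus strand). Cdk1 was the only G2/M gene in the table that also held an E2F-type match.
Cdk1: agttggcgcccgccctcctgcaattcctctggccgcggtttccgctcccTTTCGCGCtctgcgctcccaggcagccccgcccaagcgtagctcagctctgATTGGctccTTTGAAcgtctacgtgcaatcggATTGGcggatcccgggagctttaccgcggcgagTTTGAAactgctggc
Ube2c: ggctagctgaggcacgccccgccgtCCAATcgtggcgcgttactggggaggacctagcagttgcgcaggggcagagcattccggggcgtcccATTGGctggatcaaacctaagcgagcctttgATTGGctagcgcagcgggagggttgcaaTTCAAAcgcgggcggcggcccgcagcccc
Top2a: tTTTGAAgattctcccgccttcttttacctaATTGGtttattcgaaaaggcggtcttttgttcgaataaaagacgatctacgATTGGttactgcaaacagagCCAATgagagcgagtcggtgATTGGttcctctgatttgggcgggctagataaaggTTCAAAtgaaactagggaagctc
Mki67: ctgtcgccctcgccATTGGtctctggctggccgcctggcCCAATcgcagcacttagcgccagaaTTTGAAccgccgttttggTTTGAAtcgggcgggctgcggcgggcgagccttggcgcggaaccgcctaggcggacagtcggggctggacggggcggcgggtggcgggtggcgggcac
Cdc20: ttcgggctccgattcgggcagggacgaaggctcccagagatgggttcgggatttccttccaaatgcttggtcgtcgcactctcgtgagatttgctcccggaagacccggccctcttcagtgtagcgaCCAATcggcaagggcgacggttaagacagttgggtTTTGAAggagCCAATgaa

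All 57 genes were expressed in both pools, and together they made up a small part of the transcriptome. Each reached 1 TPM (a level corrected for transcript length and scaled to the library total) in both libraries, which 35.8% of all annotated genes did. At 5 TPM in both, 47 remained. Their summed level was 0.231% of all TPM in replicate 1 and 0.117% in replicate 2. The gene tables held 34678043 and 41355355 expected counts (read counts shared out over transcripts by a model), and the listed gene with the fewest reads, Orc1, had 193 counts in replicate 1 and 63.8 in replicate 2. Fold differences between libraries below are log2 of the (TPM + 1) ratio, replicate 1 over replicate 2.

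By gene-level TPM, the median S-phase gene stood slightly above the median G2/M gene in both libraries, by a margin that differed between them. It had 37.4 TPM in replicate 1 and 16.5 TPM in replicate 2, and the median G2/M gene 35.9 and 13.7 TPM. The log2 ratio of these medians, S-phase over G2/M, was 0.06 in replicate 1 and 0.27 in replicate 2 (mean 0.16 ± 0.15, SD, n = 2), so the distance between the phases was about as large as its spread between pools. By CPM (counts scaled to the library total, with no length correction) the order in replicate 1 was the reverse. The middle S-phase gene had 37.5 CPM there, below both middle G2/M genes (44.1 and 45.9 CPM). On coding transcripts alone, the middle S-phase gene of replicate 1 had 30.9 TPM, between the middle G2/M genes (30.7 and 31.6 TPM). Levels within a phase were far wider apart than the medians: S-phase genes ran from 3.51 to 123 TPM in replicate 1 and from 1.05 to 80.5 TPM in replicate 2, and G2/M genes from 6.39 to 116 and from 2.28 to 44.7 TPM. Summed over genes, S-phase transcripts exceeded G2/M transcripts 1.20-fold in replicate 1 and 1.86-fold in replicate 2. Of the 10 highest members, 4 were S-phase, 4 G2/M and 2 G1 genes in replicate 1, against 6, 2 and 2 in replicate 2, and 7 genes were among the 10 highest in both.

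**Figure D1:**
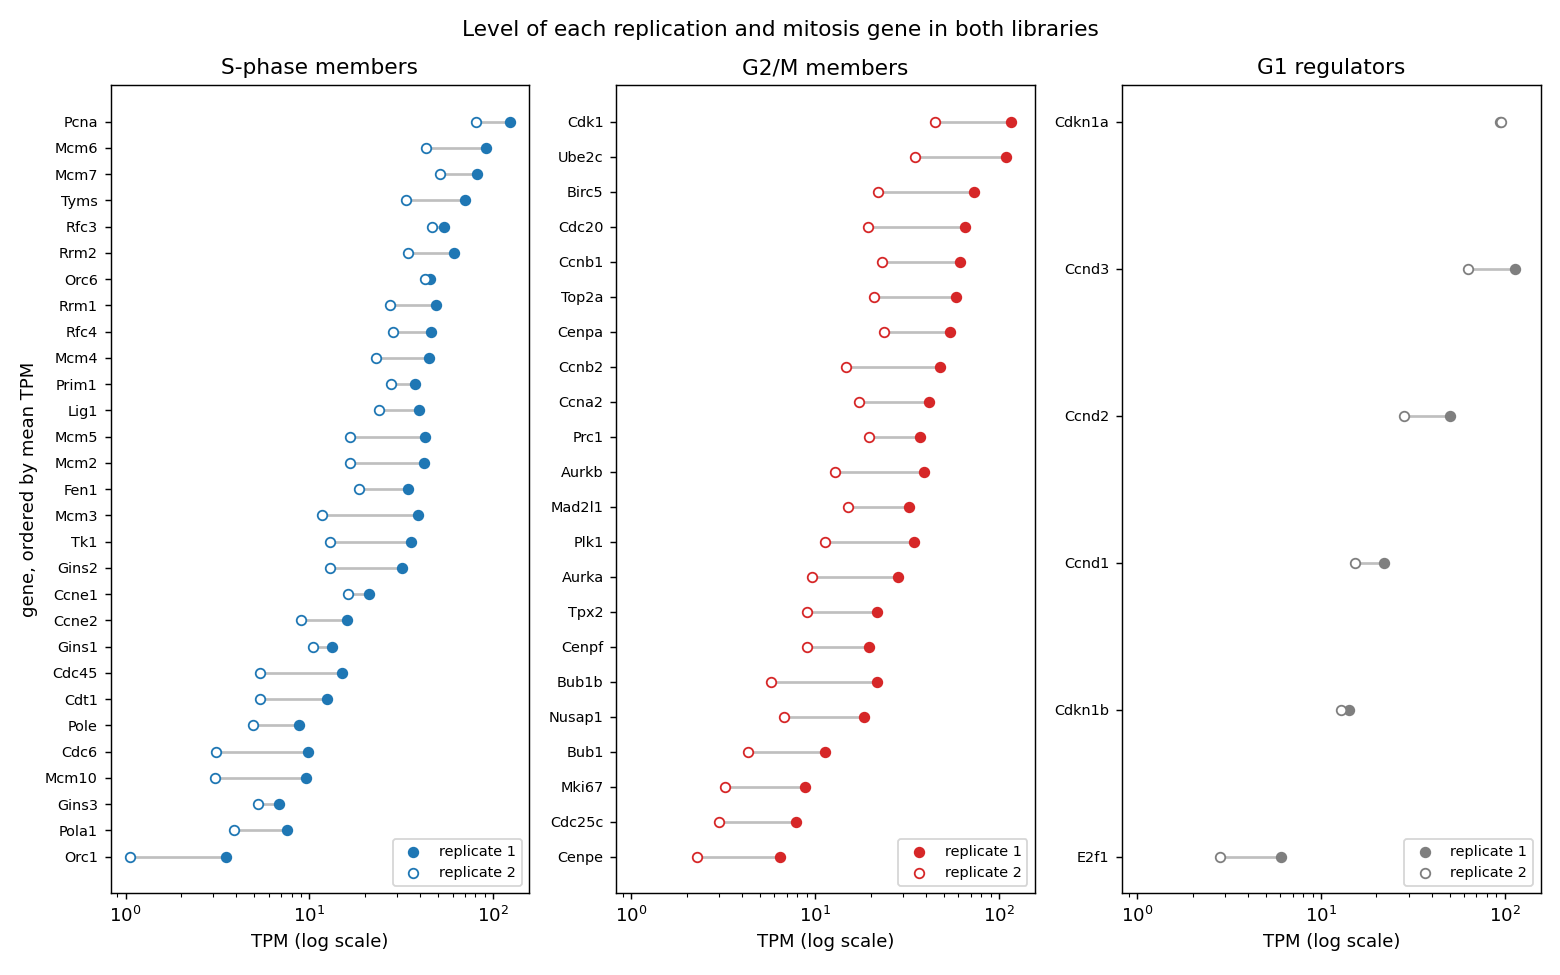
TPM of each of the 57 genes (horizontal axis, log scale) in replicate 1 (filled) and replicate 2 (open), with genes ordered by mean TPM within S-phase, G2/M and G1 groups and a grey line joining both libraries. The filled point lies to the right of the open one for every gene but Cdkn1a, and the lines are longest among G2/M genes.

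The replicative helicase was the largest group, and the transcripts of its subunits did not stand at equal levels. The 6 subunits of the MCM ring assemble in equal numbers as a protein complex. Mcm6 (ENSMUSG00000026355; chromosome 1, 128331590 to 128359664) had 91.1 TPM in replicate 1 and 42.9 TPM in replicate 2. Mcm7 had 82.0 and 51.5 TPM. These were the high pair, and the other ring genes stood lower in both libraries. Mcm4 had 44.8 and 22.9 TPM, Mcm5 42.7 and 16.5 TPM, and Mcm2 42.1 and 16.7 TPM. Mcm3 was the lowest of the ring, with 38.9 and 11.7 TPM. Mcm6 exceeded Mcm3 2.34-fold in replicate 1 and 3.67-fold in replicate 2, whereas Mcm6 and Mcm7 changed places (ratio 1.11 and 0.83). The log2 ratio between libraries ran from 0.66 for Mcm7 and 0.94 for Mcm4 through 1.07 for Mcm6, 1.29 for Mcm2 and 1.32 for Mcm5 to 1.65 for Mcm3, the largest of all S-phase genes on this scale. From CPM, Mcm10 (3.71-fold), Orc1 (3.60-fold) and Cdc6 (3.27-fold) exceeded Mcm3 (3.16-fold). Mcm7 overlaps the coding genes Cops6 (267 and 269 TPM) and Ap4m1 (19.8 TPM in both libraries) on the opposite strand. Whether its level and ratio include their reads was not tested.

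The factors that turn the loaded ring into a working helicase were lower than the ring genes, except that Gins2 stood above Mcm3 in replicate 2. Cdc45, which joins the ring to make it active, had 15.0 and 5.40 TPM. Mcm10, which is needed to open the origin, had 9.62 and 3.05 TPM. GINS is the other cofactor, and its 3 listed subunits differed: Gins2 had 31.7 and 12.9 TPM, Gins1 13.3 and 10.5 TPM, and Gins3 6.82 and 5.22 TPM. Gins2 thus stood above its partners in both libraries and also differed more between them (log2 1.23, against 0.31 for Gins1 and 0.33 for Gins3). That distance rests on how reads were given to isoforms, since from CPM (counts scaled to the library total, with no length correction) the Gins2 ratio was 1.71-fold (95% counting interval 1.54 to 1.88). Its transcript Gins2-204, annotated with a retained intron, took 69.0% and 54.6% of the gene's TPM, and on its coding transcript alone Gins2 had 8.15 and 5.05 TPM.

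Origin licensing genes were the least abundant of the S-phase groups, with the exception of Orc6. Orc1, the large subunit that binds ATP in the origin recognition complex, had 3.51 and 1.05 TPM and was the lowest of all 57 genes in both libraries. Cdc6, which loads the helicase with Orc1, had 9.83 and 3.11 TPM. Cdt1, its partner in loading, had 12.4 and 5.38 TPM. All 3 were at least 2-fold higher in replicate 1 (log2 1.14, 1.40 and 1.07). Orc6 had 45.4 and 42.7 TPM and a log2 ratio of 0.09, the smallest among S-phase genes. Its ratio from CPM was 1.07-fold, with a counting interval of 0.998 to 1.15. Orc6 overlaps the coding gene Vps35 on the opposite strand, which had 157 and 152 TPM (log2 0.05). Reads in the shared part cannot be assigned with certainty, and whether the level of Orc6 includes reads of Vps35 was not tested.

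Fork enzymes varied less between the pools than the helicase did. Pcna (chromosome 2, 132249162 to 132253314), the sliding clamp, was the highest gene of the whole set by mean level, with 123 and 80.5 TPM. The clamp loader genes Rfc3 and Rfc4 had 53.7 and 46.4 TPM and 45.9 and 28.6 TPM. Fen1, which trims Okazaki flaps, had 34.5 and 18.6 TPM, and Lig1, the ligase that joins them, 39.2 and 23.8 TPM. The polymerases were a mixed group. Prim1, the primase subunit that starts each strand, had 37.4 and 27.6 TPM, while the large catalytic subunits Pola1 and Pole had only 7.51 and 3.90 TPM and 8.80 and 4.96 TPM. By gene-level TPM none of the 8 fork genes reached 2-fold, and their log2 ratios ran from 0.21 (Rfc3) to 0.85 (Fen1), with a median of 0.68. On coding transcripts alone Pole did reach it, with 7.43 and 3.03 TPM (log2 1.06).

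Genes of nucleotide supply had the highest median of the S-phase groups by gene-level TPM, 55.0 and 30.4 TPM. On coding transcripts alone it was 35.2 and 17.5 TPM, against 34.4 and 23.2 TPM for fork genes, so that order turned in replicate 2. Tyms, which makes thymidylate, had 70.2 and 33.5 TPM. Rrm1 and Rrm2, the large and small subunits of ribonucleotide reductase, had 49.0 and 27.4 TPM and 61.0 and 34.5 TPM. The Rrm1 to Rrm2 ratio was 0.80 and 0.79, nearly equal in both pools. Tk1, the salvage kinase of S phase, had 35.5 and 12.9 TPM and differed most (log2 1.40, against 1.04 for Tyms, 0.82 for Rrm1 and 0.81 for Rrm2). The E cyclins, which bring cells into S phase, were lower, with 21.03 and 16.3 TPM for Ccne1 and 15.9 and 8.97 TPM for Ccne2. Ccne1 exceeded Ccne2 by 1.57 ± 0.35-fold (n = 2).

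By gene-level TPM, G2/M genes were led by the mitotic kinase Cdk1 and the ubiquitin-conjugating enzyme Ube2c. On coding transcripts alone Cdk1 had 58.4 and 22.2 TPM, below Ube2c in both libraries. Cdk1 (ENSMUSG00000019942; chromosome 10, 69335146 to 69352938) had 116 TPM in replicate 1 and 44.7 TPM in replicate 2. Among its partners Ccnb1 was highest in both libraries (61.4 and 23.1 TPM), while Ccnb2 (47.8 and 14.6 TPM) stood above Ccna2 (41.5 and 17.2 TPM) in replicate 1 and below it in replicate 2. Cdc25c, a phosphatase that activates Cdk1, was far lower, with 7.90 and 2.99 TPM. Cdk1 exceeded Ccnb1 by 1.91 ± 0.04-fold (n = 2), while they differed between pools by log2 1.35 and 1.37. On coding transcripts alone the ratio was 1.02 and 1.05, since much of the TPM of Cdk1 lay in retained-intron models. All 5 of these genes were more than 2-fold higher in replicate 1.

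The genes that time the exit from mitosis included both the largest log2 ratios of the set and some of the smaller ones among G2/M genes. Ube2c, which supplies ubiquitin to the anaphase-promoting complex, had 109.7 and 35.05 TPM. Cdc20, the activator of that complex, had 65.3 and 19.4 TPM. Both stood among the 10 highest members in replicate 1, but Cdc20 came 23rd in replicate 2. The spindle checkpoint genes that hold Cdc20 back were lower: Mad2l1 had 32.3 and 15.0 TPM, Bub1b 21.7 and 5.76 TPM, and Bub1 11.3 and 4.32 TPM. Bub1b had the largest log2 ratio of the set, 1.75, followed by Cdc20 at 1.70, while Ube2c had 1.62, Bub1 1.21 and Mad2l1 1.05. From CPM, Bub1b was 3.65-fold higher in replicate 1, with a 95% counting interval of 3.32 to 4.03. By that measure the S-phase gene Mcm10 stood slightly above it, at 3.71-fold (3.16 to 4.38).

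Mitotic kinases and spindle proteins came next. Birc5 (survivin), which places Aurora B at centromeres, had 72.6 and 21.9 TPM and a log2 ratio of 1.69. Aurkb, the kinase of that complex, had 39.2 and 12.8 TPM and Aurka, the centrosomal Aurora kinase, 28.0 and 9.61 TPM. Plk1, a kinase of many mitotic steps, had 34.4 and 11.2 TPM. Aurka stood below Aurkb at a steady ratio of 0.73 ± 0.02 (n = 2). Tpx2, which activates Aurora A on the spindle, had 21.6 and 8.99 TPM, and the microtubule-binding Nusap1 18.5 and 6.74 TPM. Prc1, which bundles midzone microtubules, had 37.3 and 19.7 TPM and was the only G2/M gene under 2-fold (log2 0.89).

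Chromosome and centromere genes included the usual proliferation markers at modest levels. Top2a, the topoisomerase that untangles sister chromatids, had 58.1 and 21 TPM, and Cenpa, the centromeric histone, 54.2 and 23.8 TPM. Cenpf had 19.6 and 9.06 TPM and the kinetochore motor Cenpe 6.39 and 2.28 TPM. Mki67, which encodes the Ki-67 antigen that coats mitotic chromosomes, had only 8.77 and 3.21 TPM and ranked 52nd of 57 by mean TPM. Its annotated transcript is 10075 bases long, and by CPM, which are not divided by length, it ranked 23rd. Ccnd2, also a long transcript, ranked 16th by TPM and highest by CPM.

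Among the G1 regulators, the D cyclins and E2f1 were higher in replicate 1 and the Cdk inhibitors were not far from level. Cyclin D genes, which answer growth signals and bind Cdk4 and Cdk6, stood in the same order in both libraries. Ccnd3 had 114 and 62.7 TPM, Ccnd2 50.6 and 28.2 TPM, and Ccnd1 22.0 and 15.4 TPM. The Ccnd3 to Ccnd2 ratio was 2.24 ± 0.02 (n = 2). The Cdk inhibitor genes hold cells in G1 or out of the cycle. Cdkn1a (p21) had 93.7 and 95.1 TPM (log2 -0.02) and was the only member lower in replicate 1. Cdkn1b (p27) had 14.2 and 12.9 TPM (log2 0.13). Cdkn1a was therefore the highest member of all in replicate 2 and the fifth in replicate 1, and its ratio to Cdk1 went from 0.81 to 2.13. E2f1, the founding E2F factor, had 6.09 and 2.82 TPM and a log2 ratio of 0.89.

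Across the set, replicate 1 held more of these transcripts than replicate 2, and G2/M genes differed more than S-phase genes. In total, 33 of 57 genes were at least 2-fold higher in replicate 1 and 0 were 2-fold lower. Among all 15736 genes with a mean of 1 TPM and 50 summed counts, which all 57 passed, 5.12% were 2-fold higher and 0.197% were 2-fold lower. By phase, 21 of 22 G2/M genes, 12 of 29 S-phase genes and 0 of 6 G1 regulators were 2-fold higher. The last count depends on the pseudocount, since the TPM of E2f1 alone was 2.16-fold higher. The median log2 ratio was 1.34 for G2/M genes (range 0.89 to 1.75), 0.82 for S-phase genes (0.09 to 1.65) and 0.66 for G1 regulators, against 0.02 for all tested genes. At 1.5-fold, the S-phase count was 23 of 29, and 10.1% of all tested genes were called higher, while 0 members and 1.1% of all tested genes were called lower. The genes nearest to 2-fold were Cenpf (1.03) and Tyms (1.04) above it and Mcm4 (0.94) and E2f1 (0.89) below it. With 1 library on each side no p-value can be given, and the counting interval of the ratio from CPM lay above 1 in 55 genes and included 1 for Orc6 and Cdkn1a.

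**Figure D2:**
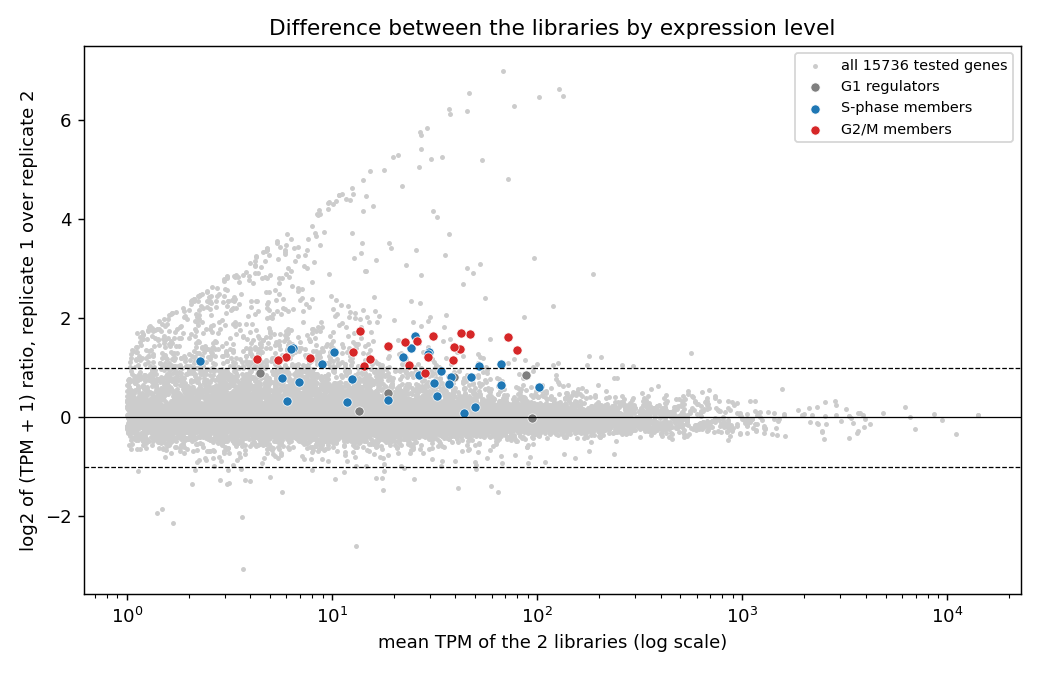
Log2 of the (TPM + 1) ratio, replicate 1 over replicate 2 (vertical axis), against the mean TPM of both libraries (horizontal axis, log scale) for 15736 tested genes (light grey), with S-phase genes in blue, G2/M genes in red, G1 regulators in dark grey and dashed lines at 2-fold. The red points lie above or just under the upper dashed line, the blue points spread from near 0 to 1.65, and most of the grey cloud is centred on 0.02.

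Markers of other tissues stood higher in the same library. Of 16 thymocyte genes, 12 could be tested and 11 were at least 2-fold higher in replicate 1, and the list summed to 390 TPM there against 32.5 TPM in replicate 2. Cd3g, a chain of the T cell receptor complex, had 93.0 TPM in replicate 1 and was listed at 0 in replicate 2, as was Cd8a (0.48 TPM in replicate 1). All 8 thymic epithelium genes were 2-fold higher (592 against 154 TPM in sum), with Foxn1, their defining factor, at 9.69 TPM and listed at 0. Lck, a T cell kinase, had 81.5 and 9.17 TPM. Of 12 surface and gut epithelium genes, 11 were 2-fold higher (785 against 18.3 TPM in sum). The list name is a label, since bulk values do not tell which epithelium, thymic or other, held these transcripts. Krt8 and Krt18, keratins of simple epithelia, had 266 and 1.97 TPM and 254 and 1.57 TPM. Many of these genes passed the minimum level only through replicate 1, which largely fixed their direction: of the tested genes, 3 thymocyte, 4 thymic epithelium and 8 surface and gut epithelium genes reached 1 TPM in replicate 2. The summed levels need no such minimum, but the lists were chosen with earlier results known and few genes dominate the thymus sums in replicate 2. Most of the thymic epithelium sum there was Ctsl (107 TPM) and Psmb10 (32.5 TPM). Most of the thymocyte sum there was Bcl11b, which was level between pools (18.1 and 17.6 TPM). The part of these tissues in the difference of the replication and mitosis genes was not tested.

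Markers of the neural cells that divide were mixed, and none passed 2-fold. Of 15 neural progenitor genes, 13 were tested, 0 were 2-fold higher and their median log2 ratio was -0.14. Fabp7, the highest of the list and a fatty acid carrier in radial glia, had 1417 and 1832 TPM. Hes5, a Notch target of progenitors, had 65.9 and 92.8 TPM, Sox2 8.35 and 9.98 TPM, and Nes 18.1 and 18.3 TPM. The largest ratios of that list belonged to Notch1 (18.6 and 9.59 TPM), Hes1 (19.03 and 11.2 TPM) and Prom1 (19.02 and 13.9 TPM), and 2 progenitor genes were higher at 1.5-fold. Since 5.12% of all tested genes were 2-fold higher, a count of 0 in 13 lies close to that background. All 7 oligodendrocyte precursor genes were within 2-fold, with a median of 0.03. All 13 neuronal genes were lower in replicate 1, by a median of -0.27, which is well within 2-fold. Endothelium (median 0.23, 8 genes), mesenchyme and meninges (0.25, 10 genes), red cells (0.22, 7 genes) and microglia (0.03, 8 genes) had 0 genes past 2-fold, and skeletal muscle genes were lower in replicate 1 (median -0.63, 8 genes, 0 past 2-fold).

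**Figure D3:**
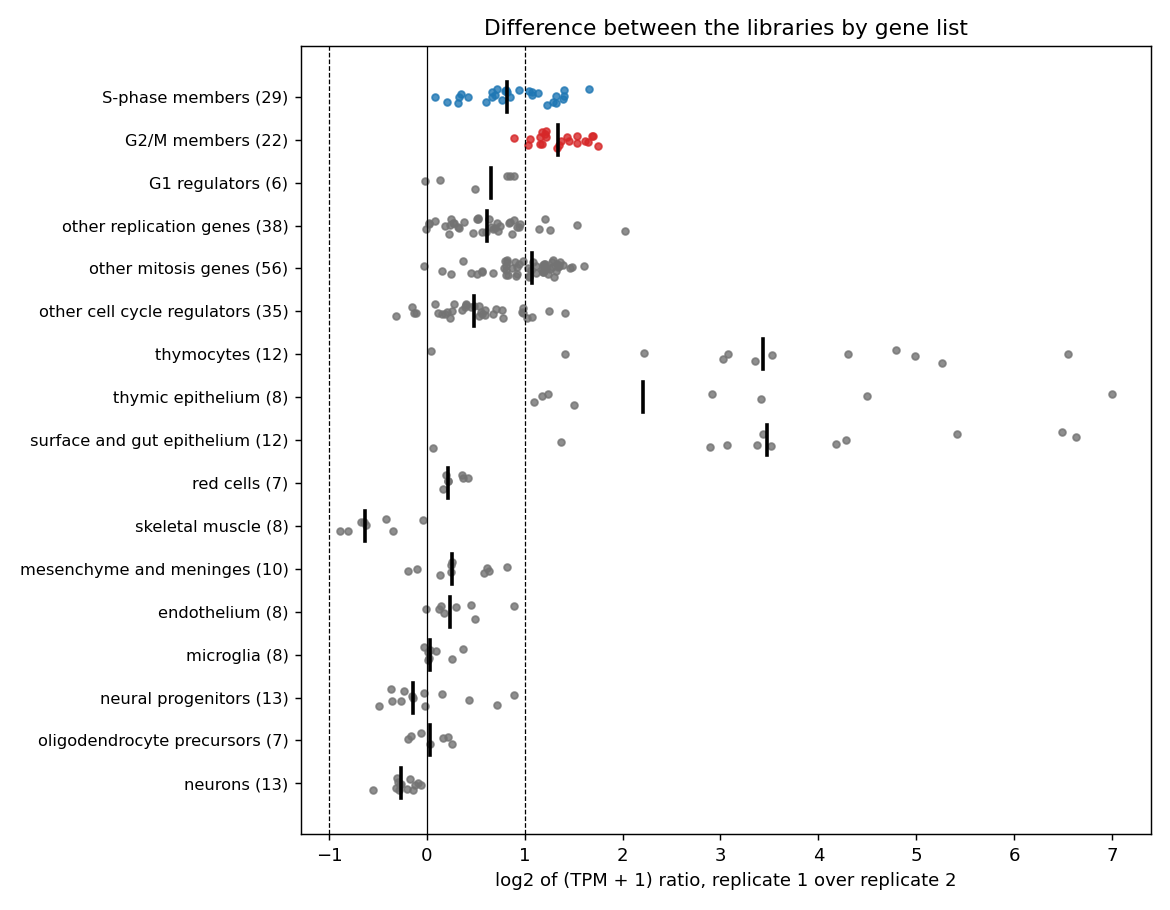
Log2 of the (TPM + 1) ratio, replicate 1 over replicate 2, for each tested gene (points) in each list (rows, number of tested genes in brackets), with the median as a black bar and dashed lines at 2-fold. G2/M genes and other mitosis genes centre on 1.34 and 1.07, thymus and epithelium lists lie further right, and neural progenitors, precursors and neurons lie around or below 0.

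Further genes of both processes were also mostly higher in replicate 1, with smaller shares past 2-fold than among the members of the matching phase. Of 56 other mitosis genes, 32 were 2-fold higher in replicate 1 and 0 lower, with a median log2 ratio of 1.07. The largest ratios belonged to Dlgap5, a spindle protein (12.9 and 3.57 TPM), the kinesin Kif20a (19.6 and 6.40 TPM) and Cdca5, or sororin, which protects cohesion (12.8 and 4.00 TPM). The smallest belonged to Cenpt (32.7 and 33.4 TPM), the checkpoint gene Bub3 (127 and 114 TPM) and Pttg1, or securin (43.3 and 36.3 TPM). Of 38 other replication genes, 5 (13.2%) were 2-fold higher and 0 lower, with a median of 0.62, beside 5.12% higher among all tested genes. Uhrf1, which carries DNA methylation through replication, led them with 48.9 and 11.3 TPM (log2 2.02). It was followed by Clspn (10.9 and 3.10 TPM), a mediator of the replication checkpoint, and Chaf1a (11.2 and 4.12 TPM), a chromatin assembly subunit. At the other end were the kinase gene Cdc7 (34.4 and 34.7 TPM), Orc4 (73.0 and 72.1 TPM) and Orc5 (29.2 and 28.6 TPM), which like Orc6 were level between pools.

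Regulators of the cycle outside the set were mostly higher in replicate 1, but few passed 2-fold. Of 36 genes, 35 were tested, 4 (11.4%) were 2-fold higher in replicate 1 and 0 lower, with a median log2 ratio of 0.48, beside the same 5.12%. The ratio was above 0 in 31 of the 35, and in 53.1% of all tested genes. The 4 were Mybl2, the B-Myb factor of G2/M transcription (7.69 and 2.27 TPM), E2f8 (5.78 and 1.86 TPM), Cdk6 (23.5 and 10.6 TPM) and Cdk2 (25.6 and 12.1 TPM). The lowest ratios belonged to Rb1, the retinoblastoma gene (16.4 and 20.7 TPM), Fzr1, which encodes the G1 activator of the anaphase-promoting complex (107 and 119 TPM), and the growth arrest gene Gadd45g (26.4 and 29.0 TPM). The genes of this list with a Cdkn symbol, named after their values were seen, were mixed. Cdkn1c (p57) had 159.7 and 151 TPM and Cdkn2d (p19) 107.5 and 116 TPM. Log2 ratios were higher for the less abundant Cdkn2b (0.71), Cdkn3 (0.59) and Cdkn2c (0.46), and Cdkn2a was listed at 0 in both libraries.

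Presence of a promoter motif went with only small differences in the ratio between libraries. Among S-phase genes, the median log2 ratio was 1.07 for the 11 with an E2F-type match and 0.82 for the 13 without. Among G2/M genes it was 1.44 for the 12 with a CHR match, such as Top2a and Mki67 above, and 1.27 for the 6 without. The ranges overlapped in both phases, from 0.21 to 1.65 against 0.09 to 1.40 for S-phase genes and from 0.89 to 1.75 against 1.05 to 1.69 for G2/M genes.

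Like most tested genes, the coding genes that start next to members were within 2-fold between the libraries on the log2 (TPM + 1) scale. Past it was 1 overlapping gene. There were 5 members that start within 1000 bases of a coding gene that runs the other way, and all 5 neighbours were within 2-fold. Since only 5.12% of all tested genes were 2-fold higher and 0.197% lower, that count lies close to the background. Aurka (28.0 and 9.61 TPM) starts 146 bases from Cstf1, an RNA cleavage factor gene with 22.4 and 18.2 TPM. Orc1 (3.51 and 1.05 TPM) starts 87 bases from the splicing factor gene Prpf38a, with 63.4 and 59.9 TPM. Mcm4 (44.8 and 22.9 TPM) starts 466 bases from Prkdc, the DNA repair kinase, with 4.49 and 3.24 TPM. In all, 17 members overlap an expressed coding gene on the opposite strand, and whether reads were counted by strand is not stated in these sources, so reads in the shared part cannot be assigned with certainty. Ube2c overlaps the muscle gene Tnnc2 in this way (22.6 and 45.6 TPM, higher in replicate 2, the reverse of Ube2c). The overlapping model Gm20388, at 4.63 TPM in replicate 1 and listed at 0 in replicate 2, spans both Gins2 and Cdt1. Processed copies were low: Ccnb2-ps had 2.57 and 3.29 TPM, Pcna-ps2 0.65 and 0.54 TPM, Ccnb1-ps 0.56 and 0.23 TPM, Ccnd3-ps 0.35 and 0.29 TPM, and Pcna-ps1 was listed at 0 in both.

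In the 14 members whose isoforms were compared, most shares were similar in both libraries, although several genes had much of their TPM in short noncoding models. In these 14 members, 2 or more transcripts each held at least 20% of the gene's TPM in both libraries. Transcripts under 20% in either library were left out, so a large switch could be missed. Cdk1 was split into its coding transcript Cdk1-202 (47.5% and 47.3%) and the retained-intron models Cdk1-204 (28.1% and 26.6%) and Cdk1-203 (20.4% and 22.6%). Ccnd1 was divided evenly between the coding Ccnd1-201 (49.5% and 52.4%) and the retained-intron Ccnd1-202 (50.5% and 47.6%). Tyms had 91.4% and 91.9% of its TPM in noncoding models, and its coding transcripts only 6.04 and 2.72 TPM, so its place near the top of the S-phase order rests on those models. Cenpa (58.1% and 65.4%) and Gins2 (74.3% and 61.0%) also had most of their TPM in noncoding models. Among transcripts with at least 20% in both libraries, the share moved most for a transcript of Fen1, whose coding transcript Fen1-202 had 30.6% in replicate 1 and 52.7% in replicate 2. Fen1-202 had 10.5 and 9.83 TPM, and Fen1-201 had 15.5 and 6.17 TPM. Fen1 overlaps the coding gene Tmem258 on the opposite strand (290 and 292 TPM), and whether its reads enter the Fen1 models was not tested. Shares moved in Pole too, where the short coding model Pole-203 had 44.8% and 25.99% and all noncoding models together 15.7% and 39.0%. Outside the 14 genes, the noncoding share also moved in Mcm10 (30.7% and 50.5%) and Rfc4 (25.5% and 12.4%). With coding transcripts alone, 31 genes were 2-fold higher in replicate 1, 20 of G2/M and 11 of S phase, and the medians were 1.36 and 0.82.

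**Figure D4:**
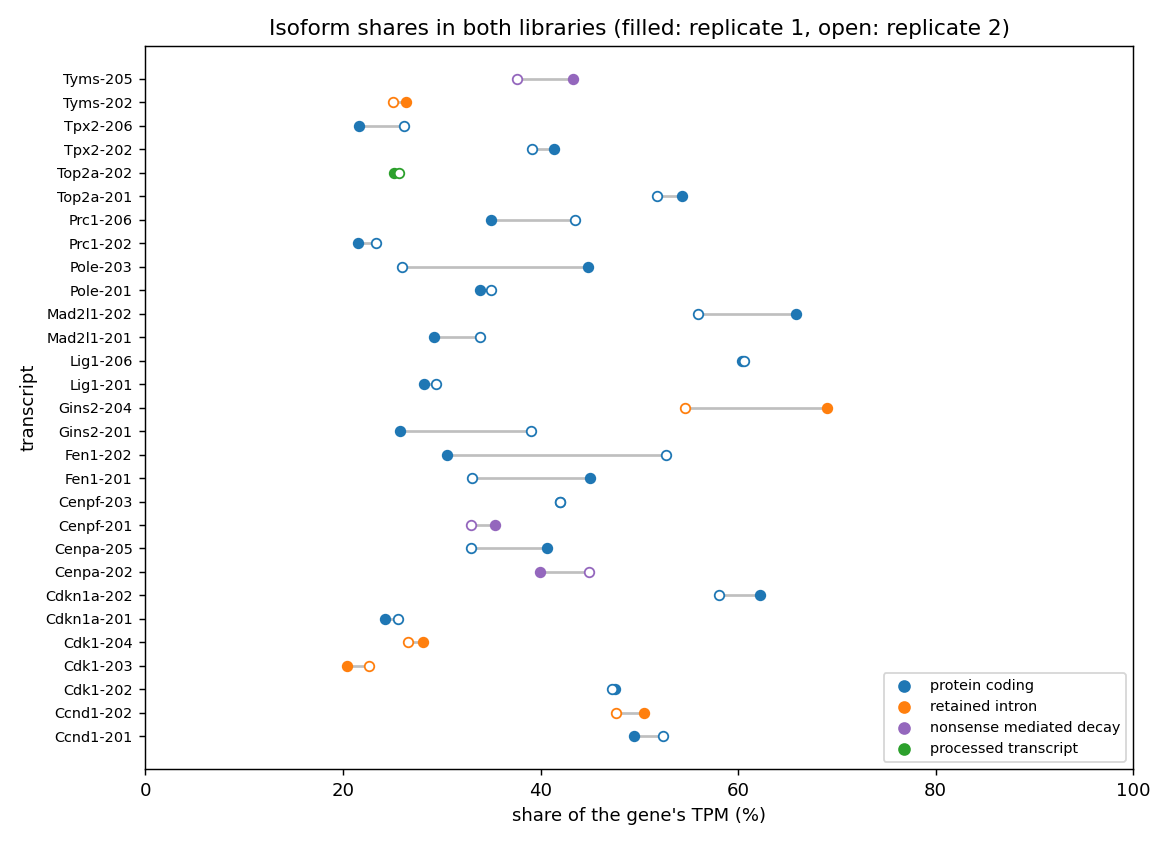
Share of the gene's TPM (horizontal axis, percent) held by each transcript with at least 20% in both libraries, for 14 genes with 2 or more such transcripts, in replicate 1 (filled) and replicate 2 (open), coloured by transcript type. Most pairs of points lie close together, and the widest gaps are those of Fen1-202, Pole-203 and Gins2-204.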

How the data were processed

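Total RNA was measured in 2 libraries, each from 10 ng of RNA longer than 200 nucleotides, with spike-in RNAs added, per the labels. The authors deposited expected counts and TPM per gene and per transcript, and each transcript's percent of its gene's TPM, per the file headers. The build was mm10 with annotation M4, per the authors' deposited notes. Aligner, quantifier and strandedness are not given in these sources. TPM as deposited includes spike-ins (5.00% and 5.42% of TPM). Number-only entries and a phage control (26249 entries, 6.49e-05% and 6.38e-05% of counts) were left out.

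Symbols and coordinates came from GENCODE M21 (GRCm38, equivalent to mm10), and 42462 of 43346 identifiers matched. All 57 members and all listed genes but Ahsp were found. Members and lists were chosen with earlier results of these data known. A gene was tested with a mean of 1 TPM and 50 summed counts, and called at an absolute log2((TPM + 1) ratio) of 1. Intervals are exact binomial (Clopper-Pearson, 95%) on rounded counts and cover counting error only. Values in both libraries were printed for all 57 members. From each other list the 3 highest and 3 lowest ratios, or the 3 highest markers, were eligible, and others were named after their values were seen. Rounded counts gave TMM factors in edgeR 4.0.16 and size factors in DESeq2 1.42.0 (R 4.3.3), used only as alternative scalings. Other steps used pandas 2.3.3, scipy 1.17.1 and numpy 2.4.6 under Python 3.11.15. The calling step was tested on simulated data.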

Additional observations from a re-analysis of the deposited data

How the results depend on the processing

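The count of members 2-fold higher in replicate 1 (33) stayed between 31 and 35 under TMM or DESeq2 scaling, spike-in scaling, TPM over annotated genes, posterior mean TPM, a pseudocount of 0.1 TPM and other minimum levels (31 at a mean of 5 TPM, where fewer genes were tested), and 0 members were 2-fold lower under any of them. A call at 1.5-fold gave 48 members, with 23 S-phase genes in place of 12. The G2/M count stayed between 20 and 22 and the S-phase count between 10 and 13 apart from that. Spike-in scaling moved the median of all tested genes from 0.02 to 0.13, and members stood 1.06 above it, against 1.05 with TPM as deposited. The excess of S-phase over G2/M medians was 0.16 as a mean, 0.06 and 0.27 in the libraries taken singly, and 0.02 as a mean on TMM-normalized CPM. By CPM the G2/M median was the higher one in replicate 1. Among genes outside the set, the count of other replication genes 2-fold higher (5) was 8 under TMM, DESeq2 or spike-in scaling, 9 with a pseudocount of 0.1 TPM and 20 at 1.5-fold. For other regulators (4) it was 7 with spike-ins, 9 with that pseudocount, 2 at a mean of 5 TPM and 13 at 1.5-fold. Among all genes the 806 higher calls became 400 at a mean of 5 TPM and 1594 at 1.5-fold. The median of oligodendrocyte precursor genes turned from 0.03 to -0.011 with DESeq2 size factors. All 57 members were detected in each library alone. A ratio between libraries has no value with 1 library left out. No paired analysis was possible because the libraries form 1 group.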
